A study of Mus musculus with 6 samples.

Results

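The transcription factor genes examined here, 10 in number, pattern the coelomic epithelium, the gonad and the Müllerian duct, and were measured in 2 mouse ovarian surface epithelial (OSE) cell lines of strain FVB/N. They were *Wt1*, *Gata4*, *Gata6*, *Emx2*, *Lhx9*, *Tcf21*, *Nr2f1*, *Nr2f2*, *Pax2* and *Pax8*, chosen by gene symbol, and all 10 were found among the 20405 genes of the deposited expression table, each with 1 probe set. M0505 is an OSE line used at early passage. STOSE is the spontaneously transformed line that long-term passage of M0505 produced. Both lines were grown in the same medium with epidermal growth factor, neither carries an engineered allele or was given a drug, and RNA of 3 samples of each line was read on Mouse Gene 1.0 ST arrays (Affymetrix). The labels call the samples of a line biological replicates but do not say how the cultures were separated, so the p-values measure the spread among samples of a single line, which had its own history in culture. RNA was taken from whole cultures, in which fewer expressing cells and less RNA per cell cannot be told apart.

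The OSE is a modified mesothelium that derives from the coelomic epithelium over the gonadal ridge. There the zinc finger factors WT1 and GATA4 and the homeodomain factors EMX2 and LHX9 are needed for the gonad to form. GATA6 is a zinc finger factor related to GATA4. NR2F1 and NR2F2 (COUP-TFI and COUP-TFII, orphan nuclear receptors) and TCF21 (a basic helix-loop-helix factor) act in mesothelial and stromal derivatives. The Müllerian duct, a fold of the same epithelium that becomes the oviduct and uterus, uses the paired box factors PAX2 and PAX8 together with EMX2. WT1 and PAX8 are also used in pathology as markers of high-grade serous cancer.

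Values are log2 values from the robust multi-array average (RMA), and a fold change is STOSE minus M0505 on that scale. A gene was called changed at a limma adjusted p under 0.05 over all genes together with a change of at least 2-fold. Of the 10 genes, 2 were called lower in STOSE cells and 0 higher, while 7.59% of all genes were called lower and 4.9% higher. *Emx2* and *Gata4* fell, *Wt1* and *Gata6* were lower by less than 2-fold, and *Nr2f1*, *Nr2f2* and *Pax8* were higher by less than 2-fold. The count of 0 higher was the same by the methods' t-test, adjusted and with the same fold threshold. At an unadjusted limma p under 0.05 there were 5 higher and 4 lower. The share of all genes at that unadjusted p was not counted, so unadjusted counts here and below have no reference. Without the fold threshold 7 of the 10 passed, 4 lower and 3 higher, but so did 56.5% of all genes, 24.8% lower and 31.6% higher. With each array centred on its median, 6 were higher and 3 lower, and so were 62.4% and 18.6% of all genes, which this scaling moves alike. In 9 of the 10 genes the 3 STOSE arrays did not overlap the 3 M0505 arrays, 5 of them higher and 4 lower, against 64.6% of all genes, 37.6% higher and 27% lower. Olfactory receptor genes, assumed to be off in these cells, served as a gauge of unspecific signal, and the 95th percentile of their 1134 probe sets was 4.74. *Lhx9* and *Tcf21* had means under that level in both lines, and the other 8 genes lay above it in both.

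**Figure D1:**
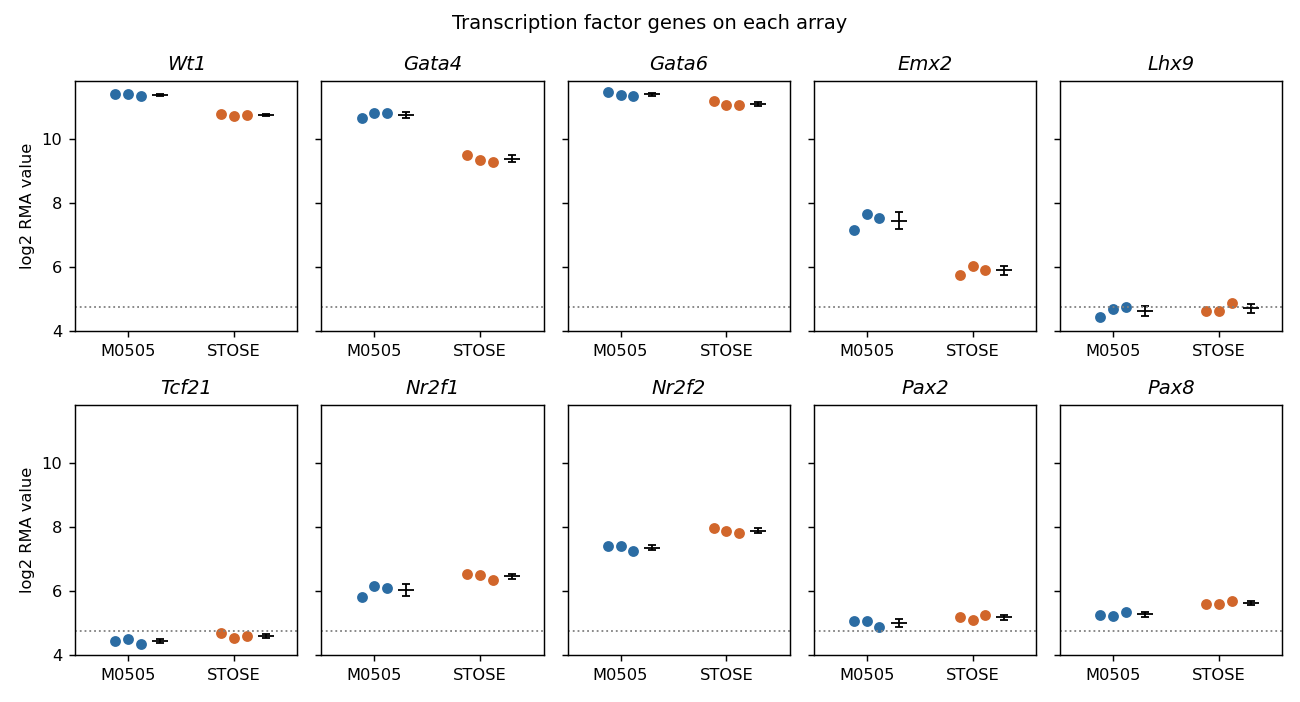
Log2 RMA value (vertical axis) of the 10 genes on each M0505 array (blue points) and each STOSE array (orange points), with the mean and SD of 3 arrays in black and the olfactory receptor 95th percentile of 4.74 as a dotted line. *Wt1*, *Gata4* and *Gata6* lie above 9 on all arrays, the steps down of *Gata4* and *Emx2* are the largest, and *Lhx9* and *Tcf21* lie around the dotted line.

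Promoter sequences were read from the RefSeq promoter windows of GRCm38.p6, which run from 250 bases before to 50 bases after a gene's start. Windows were matched by symbol for 7 of the 10 genes, *Lhx9*, *Tcf21*, *Nr2f1*, *Nr2f2*, *Pax2*, *Pax8* and *Emx2*. Those of *Emx2*, the gene with the largest fall, of *Nr2f2*, the gene with the largest upward difference, and of *Pax8*, the marker gene, are shown 5′ to 3′ along the gene. Capitals mark CCAAT and its reverse complement and the homeodomain core TAATTA. The windows are chr19:59458440-59458739 on the plus strand, chr7:70366697-70366996 on the minus strand and chr2:24475550-24475849 on the minus strand.
Emx2: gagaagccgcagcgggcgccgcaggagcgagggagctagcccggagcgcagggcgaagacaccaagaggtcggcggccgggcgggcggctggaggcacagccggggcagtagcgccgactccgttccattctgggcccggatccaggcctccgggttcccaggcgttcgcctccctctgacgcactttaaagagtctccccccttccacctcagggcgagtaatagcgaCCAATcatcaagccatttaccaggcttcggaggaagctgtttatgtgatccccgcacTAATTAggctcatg
Nr2f2: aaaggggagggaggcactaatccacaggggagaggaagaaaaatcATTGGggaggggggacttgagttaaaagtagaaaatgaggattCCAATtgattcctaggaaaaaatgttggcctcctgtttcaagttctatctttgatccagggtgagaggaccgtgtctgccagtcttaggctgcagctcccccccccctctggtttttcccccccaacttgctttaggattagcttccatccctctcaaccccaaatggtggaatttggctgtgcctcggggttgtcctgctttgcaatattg
Pax8: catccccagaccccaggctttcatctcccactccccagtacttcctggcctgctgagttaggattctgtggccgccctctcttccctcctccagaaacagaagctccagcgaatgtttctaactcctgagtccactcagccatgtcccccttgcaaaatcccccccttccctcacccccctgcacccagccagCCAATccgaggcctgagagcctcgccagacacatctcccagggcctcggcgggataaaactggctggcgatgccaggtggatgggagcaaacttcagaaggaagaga
The *Emx2* window held TAATTA once, with its first base at position 36 after the start, and CCAAT once, at −21. On either strand, TAATTA occurs in 5.29% and CCAAT in 37.4% of the 32851 windows of the same length. *Nr2f2* held CCAAT at −162 and its reverse complement at −205, and *Pax8* held CCAAT at −57. None of these 3 windows held, on either strand, the GATA letters AGATAA (in 11.2% of all windows) or TGATAA (9.05%), the nuclear receptor letters AGGTCA (16.3%), the TATA box letters TATAAA (13.6%) or the EGR and WT1 letters GCGGGGGCG (2.91%). Over the 10 windows of the 7 genes, TGATAA was in that of *Lhx9* and AGATAA in that of *Tcf21*. These matches describe letters only.

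*Wt1*, on chromosome 2, encodes the zinc finger factor that marks the coelomic epithelium, mesothelium and OSE. Its log2 values were 11.42, 11.41 and 11.36 on the M0505 arrays and 10.79, 10.74 and 10.76 on the STOSE arrays. All STOSE arrays were below all M0505 arrays, and the values within a line were tight. The means were 11.39 ± 0.03 (SD, n = 3) and 10.76 ± 0.02 (SD, n = 3), a log2 fold change of −0.63 (95% interval −0.76 to −0.51, limma adjusted p = 1.96e-05). The STOSE level was thus 1.55-fold lower and stayed far above the olfactory receptor level. The antisense gene *Wt1os*, which starts beside *Wt1* on the other strand and is listed under its older symbol *AI314831*, was lower as well, at 9.07 ± 0.03 (SD, n = 3) and 8.21 ± 0.11 (SD, n = 3), a log2 fold change of −0.86 (limma adjusted p = 1.51e-05). Whether the probe sets keep *Wt1* and *Wt1os* apart by strand is not given in the sources used here.

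*Gata4* and *Gata6* encode related zinc finger factors of the gonadal somatic cells. *Gata4*, on chromosome 14, had log2 values of 10.67, 10.84 and 10.83 on the M0505 arrays and 9.52, 9.37 and 9.30 on the STOSE arrays. The lines were separated by more than 1 log2 unit with no overlap. *Gata4* fell from 10.78 ± 0.10 (SD, n = 3) to 9.40 ± 0.11 (SD, n = 3), which is 2.60-fold (log2 fold change −1.38, 95% interval −1.56 to −1.19, limma adjusted p = 2.04e-06). *Gata6*, on chromosome 18, had values of 11.47, 11.40 and 11.36 on the M0505 arrays and 11.19, 11.08 and 11.08 on the STOSE arrays. The arrays did not overlap, but the step was small, with a log2 fold change of −0.30 (95% interval −0.44 to −0.15, limma adjusted p = 0.0038). With each array centred on its median the difference of *Gata6* was −0.10 (limma adjusted p = 0.163), and did not pass.

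The level of *Gata4* relative to *Gata6* was measured within each array, where scaling of the array cancels. The log2 value of *Gata4* minus that of *Gata6* was −0.81, −0.57 and −0.53 on the M0505 arrays and −1.66, −1.71 and −1.78 on the STOSE arrays. The lines did not overlap, and the difference changed by −1.08 (SE 0.09, exact permutation p = 0.1, two-sided, adjusted p = 0.3 over 3 pairs of related genes). With 3 arrays against 3, 0.1 is the smallest p that this test can give. For *Nr2f1* minus *Nr2f2* the change was −0.10 (SE 0.13, exact permutation p = 0.4, adjusted p = 0.4). For *Pax8* minus *Pax2* it was 0.18 (SE 0.12, exact permutation p = 0.3, adjusted p = 0.4). In both of these pairs the lines overlapped, and the spread among M0505 arrays was the larger part of the error. These pairs were chosen after values of the single genes had been seen.

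**Figure D2:**
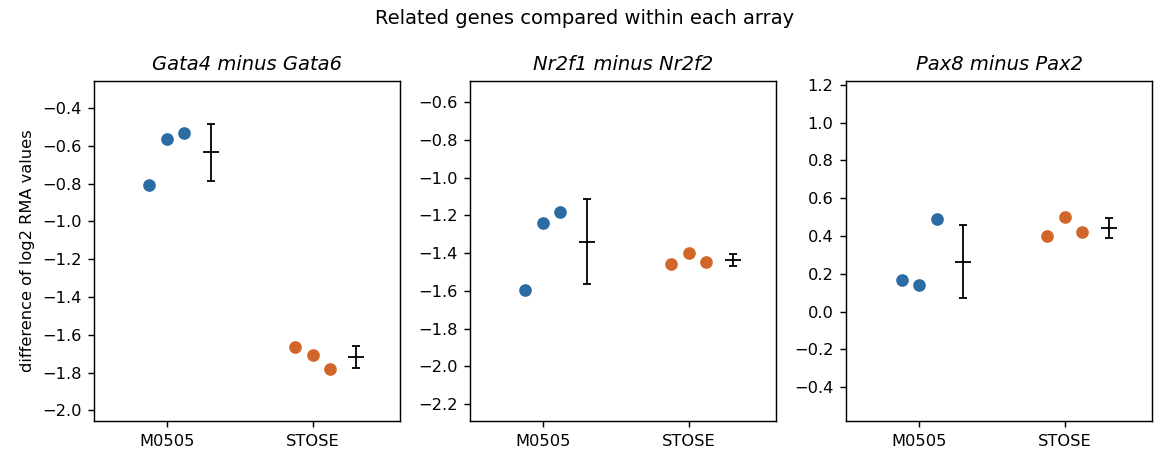
Difference of log2 RMA values between related genes on the same array (vertical axis, the same span of log2 units in each panel) for M0505 (blue) and STOSE (orange), with the mean and SD of 3 arrays in black. *Gata4* minus *Gata6* steps down from a mean of −0.63 to −1.72, while the points of the lines overlap in the other panels.

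*Emx2* and *Lhx9* encode homeodomain factors of the early gonadal epithelium. *Emx2*, on chromosome 19, had log2 values of 7.18, 7.67 and 7.53 on the M0505 arrays and 5.76, 6.04 and 5.92 on the STOSE arrays. The M0505 arrays spread more than for any other of the 10 genes, yet the lowest of them lay above the highest STOSE array. *Emx2* fell from 7.46 ± 0.26 (SD, n = 3) to 5.91 ± 0.14 (SD, n = 3), which is 2.94-fold (log2 fold change −1.55, 95% interval −1.85 to −1.26, limma adjusted p = 1.58e-05). Against a change of 2-fold in place of 0, limma's treat test still called *Emx2* (adjusted p = 0.0198) and *Gata4* (adjusted p = 0.0114). *Lhx9*, on chromosome 1, had values of 4.45, 4.70 and 4.75 on the M0505 arrays and 4.63, 4.63 and 4.87 on the STOSE arrays. It was the only one of the 10 genes whose arrays overlapped, and its log2 fold change was 0.08 (95% interval −0.15 to 0.31, limma adjusted p = 0.537). Its sign turned when M0505 replicate 1 (−0.01) or STOSE replicate 3 (−0.0038) was left out, and with arrays centred on their medians it was 0.28 (adjusted p = 0.0395).

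Over all 6 arrays, each gene centred on its own mean, the genes with the values most like those of *Emx2* were *Ephx4*, *Kank1* and *6530418L21Rik*, with root mean square differences of 0.06, 0.07 and 0.08 log2 units. Their log2 fold changes were −1.54, −1.47 and −1.46, which choosing them by likeness to *Emx2* on these arrays sets close to its own. The STOSE mean of *Ephx4* lay below 4.74, which makes its fall at least 2.15-fold. *Kank1* also lies on chromosome 19.

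*Nr2f2* and *Nr2f1* encode the COUP-TF nuclear receptors. *Nr2f2*, on chromosome 7, had log2 values of 7.41, 7.40 and 7.26 on the M0505 arrays and 7.98, 7.88 and 7.80 on the STOSE arrays. Its arrays did not overlap, with means of 7.36 ± 0.08 (SD, n = 3) and 7.89 ± 0.09 (SD, n = 3), a log2 fold change of 0.53 (95% interval 0.37 to 0.69, limma adjusted p = 0.000292). *Nr2f1*, on chromosome 13, had values of 5.81, 6.16 and 6.08 on the M0505 arrays and 6.52, 6.48 and 6.35 on the STOSE arrays. The arrays of the lines lay closer together than those of *Nr2f2*, though again without overlap, and the log2 fold change was 0.43 (95% interval 0.21 to 0.66, limma adjusted p = 0.00531). *Tcf21*, on chromosome 10, encodes a factor of mesenchyme and of the gonad. Its values were 4.43, 4.48 and 4.35 on the M0505 arrays and 4.67, 4.53 and 4.58 on the STOSE arrays, and the difference of 0.17 (95% interval 0.02 to 0.32, limma adjusted p = 0.0524) lay within the range of the olfactory receptor probe sets. The 5th to 95th percentile of their log2 fold changes ran from −0.14 to 0.25.

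*Pax8* and *Pax2* encode the paired box factors of the Müllerian and nephric ducts. *Pax8*, on chromosome 2, had log2 values of 5.24, 5.20 and 5.35 on the M0505 arrays and 5.58, 5.60 and 5.68 on the STOSE arrays. All STOSE arrays were above all M0505 arrays, at 5.62 ± 0.06 (SD, n = 3) against 5.26 ± 0.08 (SD, n = 3), a log2 fold change of 0.36 (95% interval 0.21 to 0.51, limma adjusted p = 0.00166). Both means lay less than 1 log2 unit above the olfactory receptor 95th percentile, and the arrays speak of RNA only. *Pax2*, on chromosome 19, had values of 5.07, 5.06 and 4.86 on the M0505 arrays and 5.17, 5.10 and 5.26 on the STOSE arrays. The lines did not overlap but came within 0.1 log2 units of each other, and the difference of 0.18 (95% interval 0.0014 to 0.36) did not pass the test (limma adjusted p = 0.0797).

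The median over genes was 6.46 to 6.49 on the M0505 arrays and 6.25 to 6.29 on the STOSE arrays. Centring each array on it shifted the log2 fold change of every gene by 0.20, and their median from 0.08 to 0.28. Of the called genes 39.2% were higher in STOSE cells without centring and 55.5% with it. The falls of *Emx2* and *Gata4* were then −1.35 and −1.18 and kept their calls, and *Wt1* was at −0.43 (limma adjusted p = 0.000146). *Nr2f2*, *Nr2f1* and *Pax8* were at 0.73, 0.63 and 0.56, while *Pax2* (0.38, adjusted p = 0.00217) and *Tcf21* (0.37, adjusted p = 0.000756) passed the adjusted p that they had missed. The range of the olfactory receptor probe sets moves by the same 0.20, so *Pax2* and *Tcf21* stayed within it. *Lhx9*, at 0.28, equalled the shifted median.

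**Figure D3:**
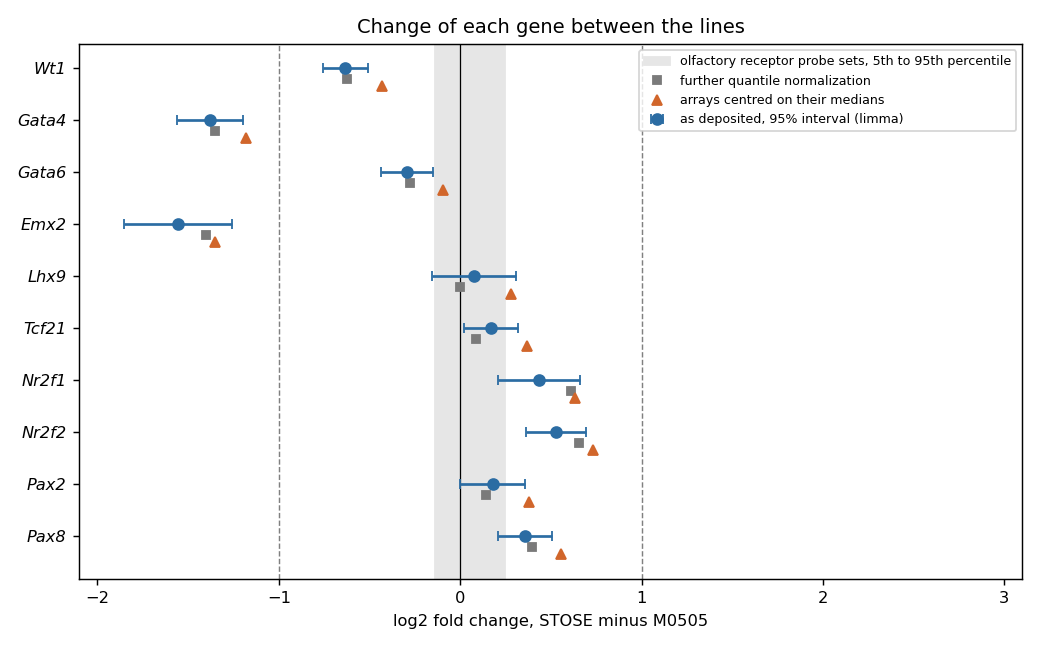
Log2 fold change, STOSE minus M0505 (horizontal axis), of each gene with its 95% interval from limma (circles), after a further quantile normalization (squares) and with arrays centred on their medians (triangles). The grey band spans the olfactory receptor probe sets as deposited, from −0.14 to 0.25, and dashed lines mark 2-fold. The band applies to the circles and not to the squares or triangles. The intervals of *Emx2* and *Gata4* lie beyond 2-fold, and the circles of *Lhx9*, *Tcf21* and *Pax2* are in the band.

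The other genes of these pathways were read in the same fit as lists, whose medians are given beside the 0.08 of all genes. Among all genes, 7.59% were called lower and 4.9% higher (5.77% and 7.18% after centring). Of 25 further factors of the gonad and its ridge, 3 were lower and 2 were higher, with a median log2 fold change of 0.02 (3 higher and 1 lower after centring). *Nr5a1*, the nuclear receptor that directs gonad formation and steroid synthesis, fell from 7.97 ± 0.09 (SD, n = 3) to 5.39 ± 0.12 (SD, n = 3), which is 5.99-fold (limma adjusted p = 6.41e-08). The basonuclin genes *Bnc1* (−1.05) and *Bnc2* (−1.13) also fell, though by less than 2-fold after centring (−0.85 and −0.93). The homeodomain factors *Lhx2* (1.34, limma adjusted p = 4.06e-07) and *Six4* (1.30, limma adjusted p = 0.000232) rose. Among the GATA cofactors, *Zfpm2* was at 0.62 and *Zfpm1* at −0.66, neither of them past 2-fold.

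Of 25 Müllerian and nephric genes, 5 were higher and 3 were lower, with a median of 0.14 (5 higher and 2 lower after centring). Of all genes, 4.9% were called higher and 7.59% lower (7.18% and 5.77% after centring). *Gata3*, a nephric duct factor, had log2 values of 5.52, 5.50 and 5.37 on the M0505 arrays and 9.49, 9.08 and 9.12 on the STOSE arrays. The lines lay more than 3 log2 units apart, and *Gata3* rose 13.6-fold (log2 fold change 3.77, SE 0.11, limma adjusted p = 5.00e-08). *Eya1*, a coactivator of kidney progenitors, rose by 3.41 (limma adjusted p = 1.00e-07) from a mean of 4.02 that lay under the olfactory receptor level, so that the rise was at least 6.42-fold, and *Gdnf*, the ligand of the ureteric bud receptor, rose by 2.81 (adjusted p = 2.12e-06). The receptor gene *Ret* itself fell by 1.23 on the log2 scale (adjusted p = 5.21e-06), and *Msx1* (−1.29) and *Wnt5a* (−1.08, and −0.88 after centring) fell as well. *Ovgp1*, the oviductal glycoprotein gene, rose from 5.24 to 6.87 (1.63, adjusted p = 6.58e-06). *Wnt11* (1.06) was close to 2-fold, at 0.95 without STOSE replicate 2 and 0.98 without STOSE replicate 3. Other genes that act with *Pax2*, *Pax8* and *Emx2* in the duct were not called, among them *Lhx1* at −0.01, *Wnt9b* at 0.11 and *Wnt4* at 0.25. *Lhx1* had M0505 and STOSE means of 4.97 and 4.96, close to the olfactory receptor level. *Wnt4*, at 9.12 and 9.37, passed the adjusted p alone (limma adjusted p = 0.00589).

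Genes that WT1 is reported to regulate in the gonad and the podocyte moved both ways. Of 16, 5 were higher and 2 were lower (4.9% and 7.59% of all genes), with a median of 0.09. *Amhr2*, the receptor of anti-Müllerian hormone, had log2 values of 11.52, 11.71 and 11.65 on the M0505 arrays and 5.995, 6.92 and 6.93 on the STOSE arrays. It fell 32.3-fold (log2 fold change −5.01, SE 0.23, limma adjusted p = 5.30e-07), and STOSE replicate 1 was the lowest array. *Podxl*, the podocyte and mesothelial sialomucin gene, fell by 2.10 on the log2 scale (adjusted p = 2.99e-08). The rises were those of *Nes* (2.99), *Spry1* (2.37), *Igf1r* (1.69), *Snai1* (1.43) and *Egr1* (1.17). Of 14 genes that GATA4 and GATA6 are reported to regulate in the gonad, 2 fell and 0 rose by limma and by the methods' t-test. By limma 7.59% of all genes fell and 4.9% rose. The adjusted p alone was passed by 9 of the 14, against 56.5% of all genes. At an unadjusted limma p under 0.05 there were 5 higher and 4 lower, with no share of all genes counted at that p. The median was 0.12. The 2 called falls were those of *Star*, the cholesterol carrier of steroid synthesis (−5.97), and *Inha*, the inhibin alpha subunit (−3.93, limma adjusted p = 4.55e-08). In both lines, 7 of the 14 had means below 4.74.

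Of 33 paralogues in the same gene families, 2 rose and 0 fell by limma and by the methods' t-test. By limma 4.9% of all genes rose and 7.59% fell. The adjusted p alone was passed in either direction by 18 of the 33, against 56.5% of all genes. At an unadjusted limma p under 0.05 there were 18 higher and 4 lower, with no share of all genes counted at that p. The median was 0.21. After centring 3 were called higher, with *Twist2* at 1.06. *Tcf23*, a relative of *Tcf21*, rose by 1.38 (limma adjusted p = 1.98e-05), and *Isl2*, a LIM homeodomain gene, rose by 1.10 (adjusted p = 1.18e-05). *Gata2* was at −0.997 from 7.38 to 6.38 and lay just short of 2-fold (−0.80 after centring), *Nr2f6* was at 0.38 and *Gata5* at 0.32.

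**Figure D4:**
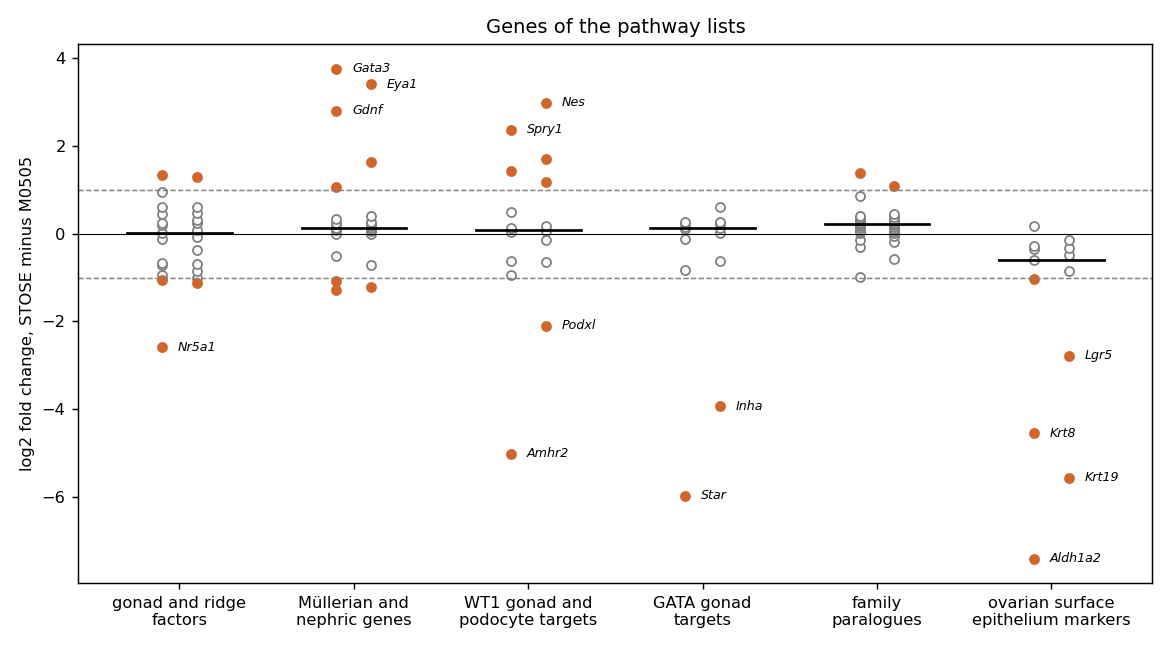
Log2 fold change, STOSE minus M0505 (vertical axis), of the genes of 6 lists, 1 point per gene, with called genes filled, others open, list medians as black bars and dashed lines at 2-fold. *Gata3*, *Eya1* and *Gdnf* lead upward in the Müllerian and nephric list, *Amhr2*, *Star* and *Inha* lead downward in the target lists, and the medians lie near 0 except in the surface epithelium list.

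Markers were read to check the labelled tissue, beside all genes, of which limma called 7.59% lower and 4.9% higher. Of 13 OSE markers on the array, 5 fell and 0 rose by limma and by the methods' t-test, with a median of −0.61. The adjusted p alone was passed by 11 of the 13, against 56.5% of all genes. At an unadjusted limma p under 0.05 there were 1 higher and 11 lower, with no share of all genes counted at that p. *Aldh1a2* (−7.41, at least 98.6-fold against 4.74), *Krt19* (−5.56), *Krt8* (−4.55) and *Lgr5* (−2.78) fell furthest, and *Krt7* (−1.03) was at −0.83 after centring and at −0.89 without STOSE replicate 1, −0.985 without M0505 replicate 2 and −0.997 without M0505 replicate 3. The mesothelial genes *Upk3b*, *Upk1b*, *Lrrn4*, *Gpm6a* and *Msln* stayed above 10 in both lines and were not called, at −0.34, −0.33, −0.15 (0.05 after centring), −0.29 and −0.61. The mean of the list over its genes was 11.34, 11.41 and 11.38 on the M0505 arrays and 9.42, 9.58 and 9.54 on the STOSE arrays, and its brightest gene was *Upk3b*. Of 8 granulosa markers, *Inha* (also among the GATA targets) and *Gata4* (also among the 10 factors) fell and the median was −0.25. Its list mean was 6.15 to 6.21 in M0505 cells and 5.35 to 5.46 in STOSE cells, *Gata4* was its brightest gene, and *Fshr* (4.31 and 4.42) and *Cyp19a1* (3.96 and 3.83) lay under the olfactory receptor level in both lines. Of 5 steroidogenic markers *Star* fell and the other 4 lay under that level (list median 0.16, list mean 4.93 to 4.99 and 3.86 to 3.95, brightest gene *Star*). Of 7 oviduct markers *Ovgp1* rose (median 0.17, list mean 4.64 to 4.74 and 4.83 to 4.92, brightest gene *Ovgp1*), while *Cdh1* (4.79 and 4.82) and *Foxj1* (4.604 and 4.83) were near background. Of 7 fibroblast markers *Thy1* rose by 1.49 (median 0.13, list mean 7.32 to 7.39 and 7.75 to 7.83, brightest gene *Dcn*), and after centring 3 of the list were called higher. *Kdr* (−5.17, at least 28.6-fold against 4.74) among 6 endothelial markers and *Cd68* (−2.82) among 7 leukocyte markers fell, with medians of 0.04 and 0.03. Each was the brightest of its list, *Pecam1* (4.69 and 4.33) and *Ptprc* (3.79 and 3.81) had means below 4.74 in both lines, and list means went from 5.30 to 5.37 down to 4.48 to 4.50 for the endothelial list and from 4.98 to 5.02 down to 4.64 to 4.69 for the leukocyte list. The part of other cell types in the results was not tested further.

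The 5 measured genes on either side of each factor in RefSeq order were read to see whether the region moved with it. The paper reports aneuploidy in both lines. Copy number was not measured here, and its part in these values was not tested. Of these 100 genes, 13 were lower and 4 were higher, with a median log2 fold change of 0.05, where 7.59% of all genes were lower and 4.9% higher. Factor by factor, the median of the neighbours was −0.25 for *Gata4*, −0.18 for *Gata6* and 0.37 for *Nr2f2*. It was 0.10 for *Wt1*, 0.07 for *Emx2*, 0.11 for *Pax8* and 0.09 for *Nr2f1*. For *Tcf21*, *Lhx9* and *Pax2* it was 0.05, −0.01 and −0.004. After centring, 10 were lower and 10 higher, and 5.77% and 7.18% of all genes. Beside *Emx2*, 3 of 10 fell. *E330013P04Rik*, the second gene after it, had log2 values of 9.03, 9.94 and 9.79 on the M0505 arrays and 3.96, 4.20 and 4.04 on the STOSE arrays, with the STOSE values under the olfactory receptor level. It fell at least 28.7-fold, its M0505 mean being set against 4.74 where the STOSE mean lay below that level (fitted log2 fold change −5.52, SE 0.21, limma adjusted p = 2.34e-07). *Rab11fip2*, directly after *Emx2*, fell by 1.20 on the log2 scale (adjusted p = 4.48e-06) and *Kcnk18* by 1.18, which was −0.98 after centring, whereas *Pdzd8* directly before *Emx2* was at 0.03. Beside *Gata4*, the cathepsin B gene *Ctsb* (−1.21) and *Defb42* (−1.27) fell and the nearest genes *Neil2* (−0.32) and *Blk* (−0.03) were not called, both with means below 4.74 in both lines, where a fall cannot be read. Beside *Gata6*, *Abhd3* (−2.62), *Tmem241* (listed as *6030446N20Rik*, −1.35) and *Cables1* (−1.14, and −0.94 after centring) fell while *Gata6* itself moved by −0.30.

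Beside *Wt1*, *Rcn1* rose by 1.21 and *Prrg4* was at −1.02, under 2-fold after centring (−0.82), after a further quantile normalization (−0.93), and without M0505 replicate 1 (−0.989), M0505 replicate 2 (−0.986) or STOSE replicate 1 (−0.94). Beside *Pax8*, *Il1rn*, the interleukin 1 receptor antagonist gene, rose by 3.90 (limma adjusted p = 2.89e-06). *Sema4g* beside *Pax2* fell by 2.02. Beside *Tcf21*, *Eya4* rose by 1.55 and *Vnn1* (−4.43, at least 19.9-fold) and *Slc18b1* (listed as *1110021L09Rik*, −1.76) fell. Beside *Nr2f2*, *Igf1r* rose by 1.69 and *Mctp2* fell by 2.38. The median of the 10 genes beside *Nr2f2* was 0.37, where *Nr2f2* itself was at 0.53. The STOSE means of *Vnn1*, *Mctp2*, *Defb42* and *Kcnk18* lay below 4.74, and against that level *Mctp2*, *Defb42* and *Kcnk18* were lower by at least 1.95-fold, 1.44-fold and 1.98-fold. By limma and by the methods' t-test, 0 of the 10 genes beside *Lhx9* and 0 of the 10 beside *Nr2f1* were called. At an unadjusted limma p under 0.05 there were 2 higher and 1 lower beside *Lhx9* and 4 higher and 1 lower beside *Nr2f1*. No share of all genes was counted at that p. After centring, *Nek7* beside *Lhx9* (1.10) and *Polr3g* beside *Nr2f1* (1.13) were called higher.

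**Figure D5:**
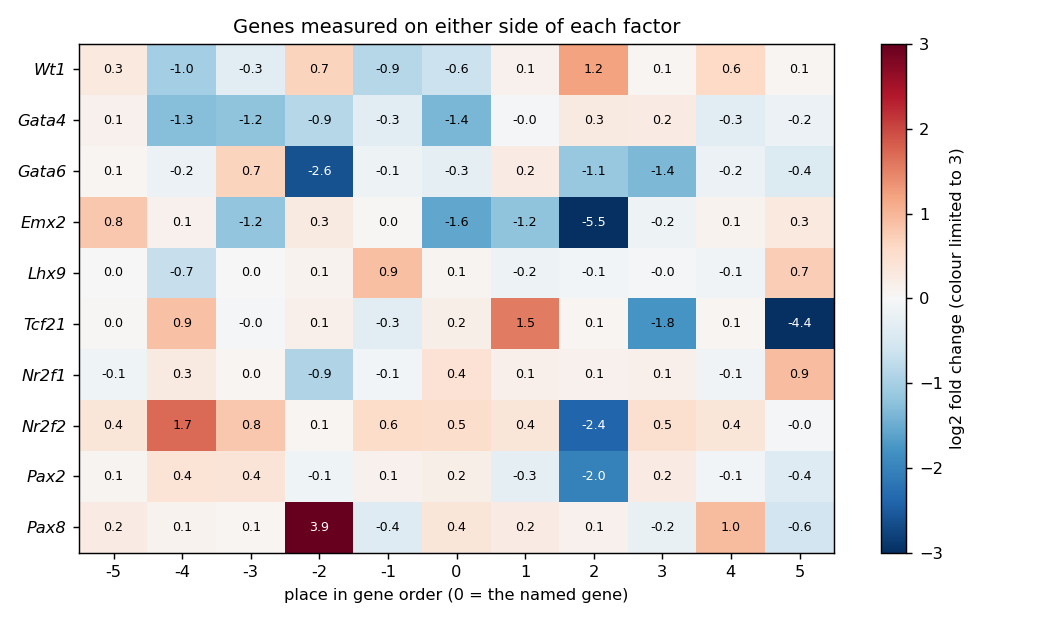
Log2 fold change, STOSE minus M0505 (printed in each cell and as colour), of each factor (place 0) and of the 5 measured genes on either side of it in RefSeq order of rising position (horizontal axis), 1 row per factor. The cells past 3 log2 units are those of *E330013P04Rik* in the *Emx2* row, *Vnn1* in the *Tcf21* row and *Il1rn* in the *Pax8* row, the first and the second of them with STOSE means below 4.74.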

How the data were processed

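Total RNA of 3 M0505 and 3 STOSE samples was read on Mouse Gene 1.0 ST arrays (Affymetrix). The authors normalized the arrays by RMA in Affymetrix Expression Console, and the deposited table holds 1 column of log2 values per array for 28944 probe sets. Software version, annotation release and genome build are not given in the sources used here. The table's columns of line means and linear fold changes were not used. For each of 20405 symbols the probe set with the highest mean was kept. Lines were compared in limma 3.58.1 (lmFit, eBayes; R 4.3.3) without covariates, with Benjamini-Hochberg adjustment over all genes. The code was tested on simulated data. The members and lists were chosen with earlier results of these data known. Lists were described by counts and medians. Named singly were the 10 factors, up to 4 rises and 4 falls per list, called markers and neighbours, and the genes most like *Emx2*. Other genes were named after their values were seen. RefSeq GRCm38.p6 gave chromosome and order for 97.4% of genes by symbol or unique synonym. With 3 arrays per line, their number sets the precision. Alternatives covered normalization, dim genes, probe sets, the test, the fold threshold, a replicate block and leaving out each array.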

Additional observations from a re-analysis of the deposited data

How the results depend on the processing

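The fold threshold moved the counts most. With the adjusted p alone, 3 of the 10 factors were higher and 4 lower, and 6454 and 5066 of all genes. By the adjusted p alone after centring, which moves all genes alike, 6 factors were higher and 3 lower (62.4% and 18.6% of all genes), and without the dimmest 25% of genes 4 and 4 (38.1% and 32.4%). At 4-fold, 0 of the factors and 186 and 509 of all genes were called higher and lower, and limma's treat test against 2-fold called 5.1e+02 (rounded) and 994 genes and the same number of factors as before. With each array left out in turn, 2 factors were called lower and 0 higher every time, with 955 to 1065 genes higher and 1508 to 1591 lower, and *Lhx9* ranged from −0.01 to 0.13. *Lhx9* at −0.013 (without M0505 replicate 1) and −0.0038 (without STOSE replicate 3) was the only one of the 10 to turn in sign under any alternative, and the cause was not tested. The methods' t-test with the fold threshold called 996 and 1546 genes at its unadjusted p and 988 and 1543 after Benjamini-Hochberg adjustment. The labels number the replicates 1 to 3 in each line but do not say whether equal numbers mark pairs. Deviations of same-numbered arrays from their line means correlated at 0.26, 0.04 and 0.25. Those of arrays with different numbers correlated at −0.29 to 0.12. The main fit used no pairs, and whether the numbers mark them was not tested. With a replicate block 2 factors were lower and 0 higher, and 1001 genes were higher and 1548 lower. Differences near the olfactory receptor level, as for *Lhx9* and *Tcf21*, are limited by signal over background.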
